A study of Fragaria x ananassa with 28 samples.

Results

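Nordihydroguaiaretic acid (NDGA) was compared with water in the mRNA of strawberry receptacle 8 days after injection, with 2 libraries on each side. These are 4 of the 14 mRNA libraries and of the 28 libraries of the series, and they were chosen by the labelled treatment and day alone. All plants were 'Toyonoka', an octaploid cultivar of Fragaria × ananassa, kept under greenhouse conditions. Fruits 2 weeks past flowering received 100 µL of distilled water or of 100 µM NDGA into the core of the receptacle, by way of the pedicel. Groups used below as a setting were water at days 0 and 5, NDGA at day 5 and 1 µM abscisic acid (ABA) at days 5 and 8, each with 2 libraries. Control fruit therefore carried the same injection wound as treated fruit. RNA of 10 fruits a group was pooled. No source used here says whether a group's 2 libraries were made from different pools, so the p-values cover the spread among these libraries alone, and that spread may be technical.

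The strawberry receptacle ripens without a burst of ethylene, and ABA is known as a hormone that promotes its reddening, softening and aroma. ABA is made from carotenoids, with a cleavage step by 9-cis-epoxycarotenoid dioxygenase (NCED). Per the labels NDGA blocks ABA synthesis, and it also inhibits lipoxygenases in general, the enzymes that start jasmonate synthesis. During ripening the receptacle builds red anthocyanins from phenylalanine, loosens its walls with pectin-cleaving enzymes and expansins, and makes volatile esters and furanones.

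Each of the 4 libraries held 7894784 to 8609297 reads on assembled transcripts, so that 1 read on a transcript of 1 kb was worth 0.116 to 0.127 RPKM (reads for each kilobase of a transcript, relative to all reads of its library). The NDGA libraries correlated with each other at 0.914 and the water libraries at 0.913 (Pearson, log2(RPKM + 1), across transcripts), against 0.883 to 0.891 between the treatments. Levels below are RPKM of the first and the second library of a group. RPKM is not corrected for differences in composition between libraries. Median-ratio scaling factors, the typical level of a library's transcripts relative to all 14, were 0.872 and 0.865 in ABA at day 8. They were 1.07 to 1.1 in the 4 compared libraries. By these factors, ABA levels of day 8 are low beside the levels of the 4 libraries. Changes are log2 differences of RPKM + 1 with the standard error of a limma fit over all 14 libraries, and a transcript is called changed at an adjusted p below 0.05 (limma, Benjamini-Hochberg over 99136 tested transcripts). That scale understates the change of low transcripts. Transcripts are assembled forms, and forms of 1 assembly component share reads, which leaves the level of a single form uncertain. In these bulk samples, fewer cells of a type and less RNA per cell cannot be told apart.

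A set of forms divided the 14 libraries across treatments and days. It was defined without the 4 libraries compared here, as forms with at most 2 reads summed over the 6 libraries of water day 5, ABA day 5 and ABA day 8 and with at least 1 RPKM in all 4 libraries of water day 0 and NDGA day 5. The set held 372 forms of 363 components, 125 of them described. Their summed level was 2584 and 2542 RPKM in the water libraries of day 8 and 586 and 550.5 RPKM in the NDGA libraries of day 8. It was 2949 and 2908 RPKM in water at day 0, 1465 and 1513 RPKM in NDGA at day 5, 19 and 17 RPKM in water at day 5 and 8.57 and 11.6 RPKM in ABA at day 8. The water libraries of day 8 were thus near those of day 0, and the NDGA libraries of day 8 lay between them and the groups with nearly none. With NDGA at day 8, 125 of the 372 forms fell and 0 rose, and the median ratio of NDGA to water was 0.23 (quartiles 0.14 and 0.4). The count of 125 depends in part on the definition, since the 6 libraries held near 0 add little spread to the fit behind the calls. The ratio does not use that fit. For 157 of the components another form summed to at least 1 RPKM in both water libraries of day 5. What divides the libraries in this way was not tested. Where forms of this divided set are among the calls below, the text gives their number or names them.

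**Figure D1:**
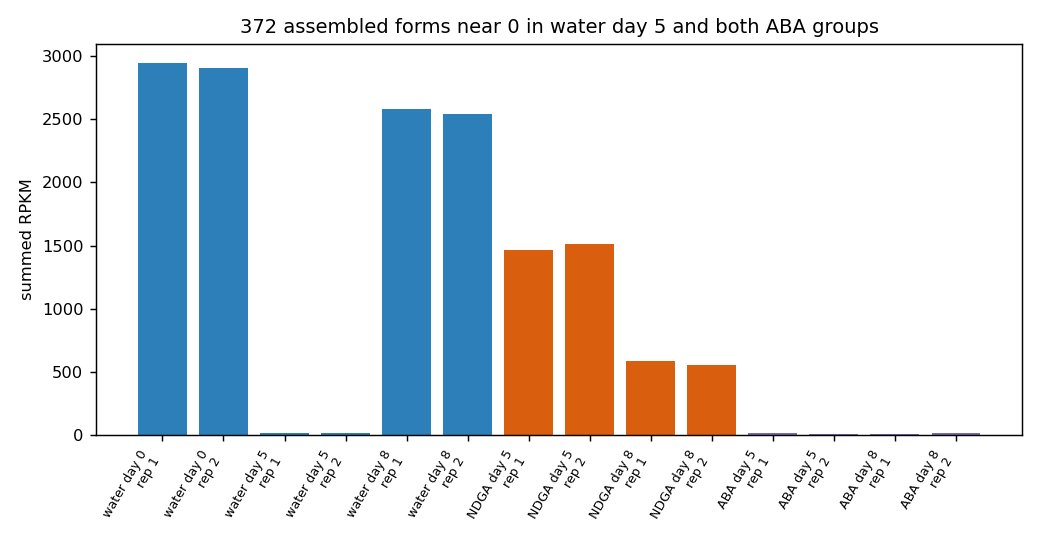
Summed RPKM (vertical axis, linear scale) of the 372 forms of the divided set in each of the 14 mRNA libraries, grouped by treatment and day. Each bar is 1 library. The water libraries of day 8 (2584 and 2542 RPKM) lie above the NDGA libraries of day 8 (586 and 550.5 RPKM), and the 6 libraries that define the set as near 0 lie at 7.33 to 19 RPKM.

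At day 8, 699 transcripts rose and 1465 fell with NDGA, which is 0.705% and 1.48% of the tested transcripts. Among the 34209 transcripts with a Swiss-Prot description, 410 rose (1.2%) and 708 fell (2.07%), and those shares are the background for the gene lists below. The median change over all tested transcripts was 0.00, and over the described ones 0.01. Outside the divided set 699 rose and 1340 fell. Of the transcripts that fell, 237 had no read in either NDGA library of day 8, and 49 of those that rose had none in either water library of day 8. Counted over all calls, 44 of the transcripts that fell and 8 of those that rose had at most 2 reads in sum over the other 10 mRNA libraries. The counts lean on the spread shared with the other groups. Each library left out in turn gave 834 to 917 calls, from 834 without NDGA replicate 1 and 853 without water replicate 2 to 883 without water replicate 1 and 917 without NDGA replicate 2. A fit of the 4 libraries alone called 756 of 66283 transcripts (197 higher, 559 lower), and 0 of 99136 where the transcripts tested were those of the full fit, with 12583 at an unadjusted p below 0.05.

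Among the lists with 6 or more called members, those with the largest share of risen members were the small heat shock proteins, with 18 of 69 higher and 0 lower, and the tubulins and actins, with 14 of 111 higher and 1 lower. Those with the largest share of fallen members were the PR-10 allergens, with 11 of 51 lower, the early flavonoid enzymes, with 11 of 53 lower, and the expansins, with 10 of 53 lower. With 1 library left out, PR-10 allergens numbered 5 to 8 lower, early flavonoid enzymes 6 to 7, expansins 4 to 6, and tubulins and actins 0 to 5 higher. The only lists with no call at all at day 8 were the Calvin cycle and chlorophyll enzymes (0 of 75) and the SPL, TCP and GRF transcription factors (0 of 83). Each list is a keyword list over the descriptions, and its counts are descriptions beside the background of 1.2% higher and 2.07% lower.

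**Figure D2:**
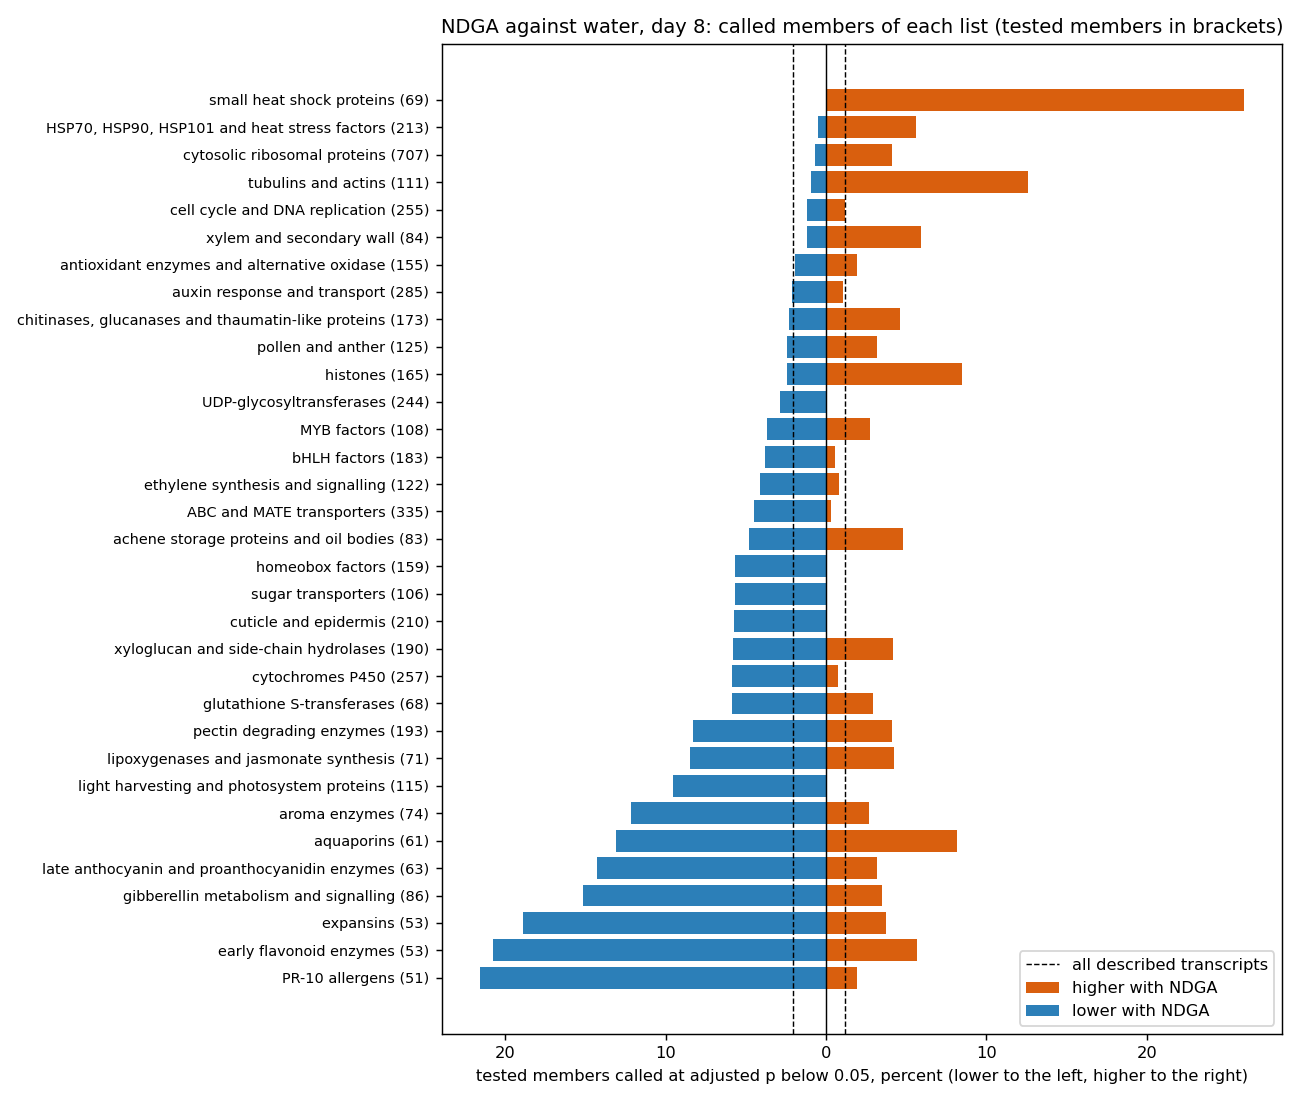
Percent of the tested members of each gene list called higher (right) or lower (left) with NDGA at day 8, for the lists with 6 or more called members. Dashed lines mark the shares among all described transcripts, 1.2% higher and 2.07% lower. Small heat shock proteins reach far to the right of the dashed line, and the PR-10, flavonoid and expansin lists reach far to the left of it.

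Transcripts for red pigment fell with NDGA, while 2 transcripts of a branch toward colourless tannins rose. MYB113 names a clade of MYB factors that switch on anthocyanin genes, known from Arabidopsis. Form comp93382_c0_seq1 stood at 135 and 119.7 RPKM in water and 7.53 and 7.71 RPKM in NDGA (water over NDGA 16.7-fold, log2 change -3.89 ± 0.21, adjusted p = 5.67e-07). The second MYB113 form, comp113395_c0_seq6, stood at 197 and 169.7 RPKM in water and 8.4 and 15.7 RPKM in NDGA (log2 change -3.88 ± 0.25, adjusted p = 2.87e-06). In both forms the 2 water libraries lay far above the NDGA libraries. At day 5 the first form had stood at 9.57 and 7.85 RPKM in water and 0.294 and 0.787 RPKM in NDGA, so that NDGA fruit of day 8 were near the water level of day 5. In ABA fruit of day 8 it reached 227 and 216 RPKM. TT8, a bHLH partner of such MYB factors in Arabidopsis, fell from a mean of 77.8 to 50.3 RPKM (log2 change -0.62, adjusted p = 0.0288). A call was lost for TT8 whichever of the 4 libraries was left out (adjusted p = 0.24, 0.0596, 0.0862 and 0.209).

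Phenylalanine ammonia-lyase, which opens the phenylpropanoid pathway, fell in 3 components. Its form comp109367_c0_seq10 went from 40.2 and 49.5 RPKM in water to 2.57 and 5.72 RPKM in NDGA (log2 change -3.22 ± 0.35, adjusted p = 0.000243). Of 45 tested transcripts of the pathway's entry, 5 fell and 0 rose, the others being 4-coumarate-CoA ligases. Entry calls numbered 2 to 3 lower with 1 library left out and 3 lower without the 6 libraries nearly devoid of the divided set. The early flavonoid list had 11 of 53 members lower and 3 higher, with a median change of 0.00. Early flavonoid calls numbered 6 to 7 lower and 0 to 2 higher with 1 library left out and 7 lower with a pseudocount of 0.1. The 11 that fell comprised chalcone synthases, which make the flavonoid skeleton, chalcone isomerases, flavanone 3-hydroxylases and transcripts described as flavonol synthase. Flavanone 3-hydroxylase (naringenin 3-dioxygenase, comp105084_c0_seq1) stood at 314 and 356 RPKM in water and 123 and 110.3 RPKM in NDGA (log2 change -1.51 ± 0.10, adjusted p = 5.8e-06). Its 2 treatments did not overlap, and in ABA fruit of day 8 the form was at 401 and 399.6 RPKM. A chalcone synthase form (comp115927_c0_seq1) went from a mean of 272 to 78.2 RPKM (log2 change -1.78, adjusted p = 1.31e-05), and a chalcone isomerase form (comp105486_c1_seq2) from 85.3 to 14.2 RPKM (log2 change -2.50, adjusted p = 2.42e-05). The 3 members that rose were all flavonoid 3'-hydroxylase forms, an enzyme that adds a hydroxyl to the B ring. The most abundant of them, comp110719_c0_seq1, went from 2.81 and 1.85 to 11.8 and 12.4 RPKM (log2 change 1.99 ± 0.37, adjusted p = 0.0116). The call for this form was lost with a pseudocount of 0.1 and without NDGA replicate 1, NDGA replicate 2 or water replicate 2 (adjusted p = 0.0713, 0.0904, 0.0999 and 0.117, in a range of 0.000661 to 0.117 over 15 alternatives).

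Of 63 tested members of the later steps toward anthocyanin and proanthocyanidin, 9 fell and 2 rose, with a median of -0.23. Calls of the later steps numbered 4 to 7 lower and 2 higher with 1 library left out. The anthocyanidin 3-O-glucosyltransferase comp118873_c1_seq4, which glucosylates the pigment and so stabilises it, stood at 77.5 and 68.4 RPKM in water and 2.1 and 0 RPKM in NDGA (log2 change -5.39 ± 0.41, adjusted p = 1.29e-05). Neither NDGA library came near the water libraries, and in ABA fruit the form was at 86.1 and 85.6 RPKM. Called forms of leucoanthocyanidin dioxygenase, which makes the coloured anthocyanidin, fell, from means of 90.2 to 10.7 RPKM (log2 change -2.94) and of 87.5 to 14.9 RPKM (log2 change -2.50). Dihydroflavonol 4-reductase fell in 4 components, one of them (comp94137_c0_seq1) from a mean of 45.2 to 13.2 RPKM (log2 change -1.70, adjusted p = 0.000127).

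The 2 members that rose were anthocyanidin reductases, which turn anthocyanidins into the epicatechin units of proanthocyanidins. Form comp103703_c1_seq1 went from 21.7 and 22.6 RPKM in water to 106 and 111 RPKM in NDGA (log2 change 2.24 ± 0.15, adjusted p = 4.42e-06). Form comp103703_c0_seq1 went from 33.1 and 31.8 to 164 and 143 RPKM (log2 change 2.20 ± 0.16, adjusted p = 1.06e-05). Both NDGA libraries exceeded both water libraries, and in ABA fruit of day 8 the first form was at 11.8 and 15 RPKM. Another anthocyanidin reductase component, comp101618_c0_seq1, fell, with a log2 change of -0.98 (adjusted p = 0.0157). A call was lost for that component whichever of the 4 libraries was left out (adjusted p = 0.0826, 0.121, 0.0561 and 0.151). Proanthocyanidins are the astringent tannins of young fruit. The MYB4 form comp93925_c1_seq1, named for an Arabidopsis repressor of phenylpropanoid genes, rose from 1.6 and 1.36 to 10.2 and 8.38 RPKM (log2 change 2.05 ± 0.34, adjusted p = 0.00551). The MYB4 form missed the threshold with a pseudocount of 0.1 and without NDGA replicate 1 or water replicate 2 (adjusted p = 0.169, 0.0745 and 0.0589, in a range of 0.000281 to 0.169 over 15 alternatives).

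Of 68 tested glutathione S-transferases 4 fell and 2 rose. The 4 that fell were of the F11/F12 type, whose Arabidopsis member TT19 carries anthocyanin toward the vacuole. Transferase calls numbered 2 to 3 lower and 1 higher with 1 library left out. Form comp96711_c0_seq3 went from 37.7 and 28.4 RPKM in water to 2.18 and 0.887 RPKM in NDGA (log2 change -3.78 ± 0.41, adjusted p = 0.000203), and form comp97186_c0_seq1 from 16.6 and 13.7 to 1.19 and 0.985 RPKM (log2 change -2.95 ± 0.30, adjusted p = 0.000139). Both NDGA libraries were far below both water libraries. In ABA fruit of day 8 the first form stood at 2.07 and 0.46 RPKM and the second at 6.59 and 8.74 RPKM. Of 335 ABC and MATE transporters 15 fell and 1 rose, and 11 of the 15 were described as TRANSPARENT TESTA 12, a MATE carrier of flavonoids in the Arabidopsis seed coat. Transporter calls numbered 5 to 8 lower and 0 higher with 1 library left out. TRANSPARENT TESTA 12 form comp46405_c0_seq2 stood at 6.78 and 15.1 RPKM in water and was listed at 0 in both NDGA libraries (adjusted p = 0.000207). Among 244 UDP-glycosyltransferases, which attach sugars to small molecules, 7 fell and 0 rose, shares not far from the background. Glycosyltransferase calls numbered 3 lower with 1 library left out and 4 lower without the 6 libraries nearly devoid of the divided set. UDP-glycosyltransferase 91A1 (comp101313_c0_seq4) went from 15.1 and 18.6 to 4.35 and 4.37 RPKM (log2 change -1.73 ± 0.24, adjusted p = 0.00141).

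**Figure D3:**
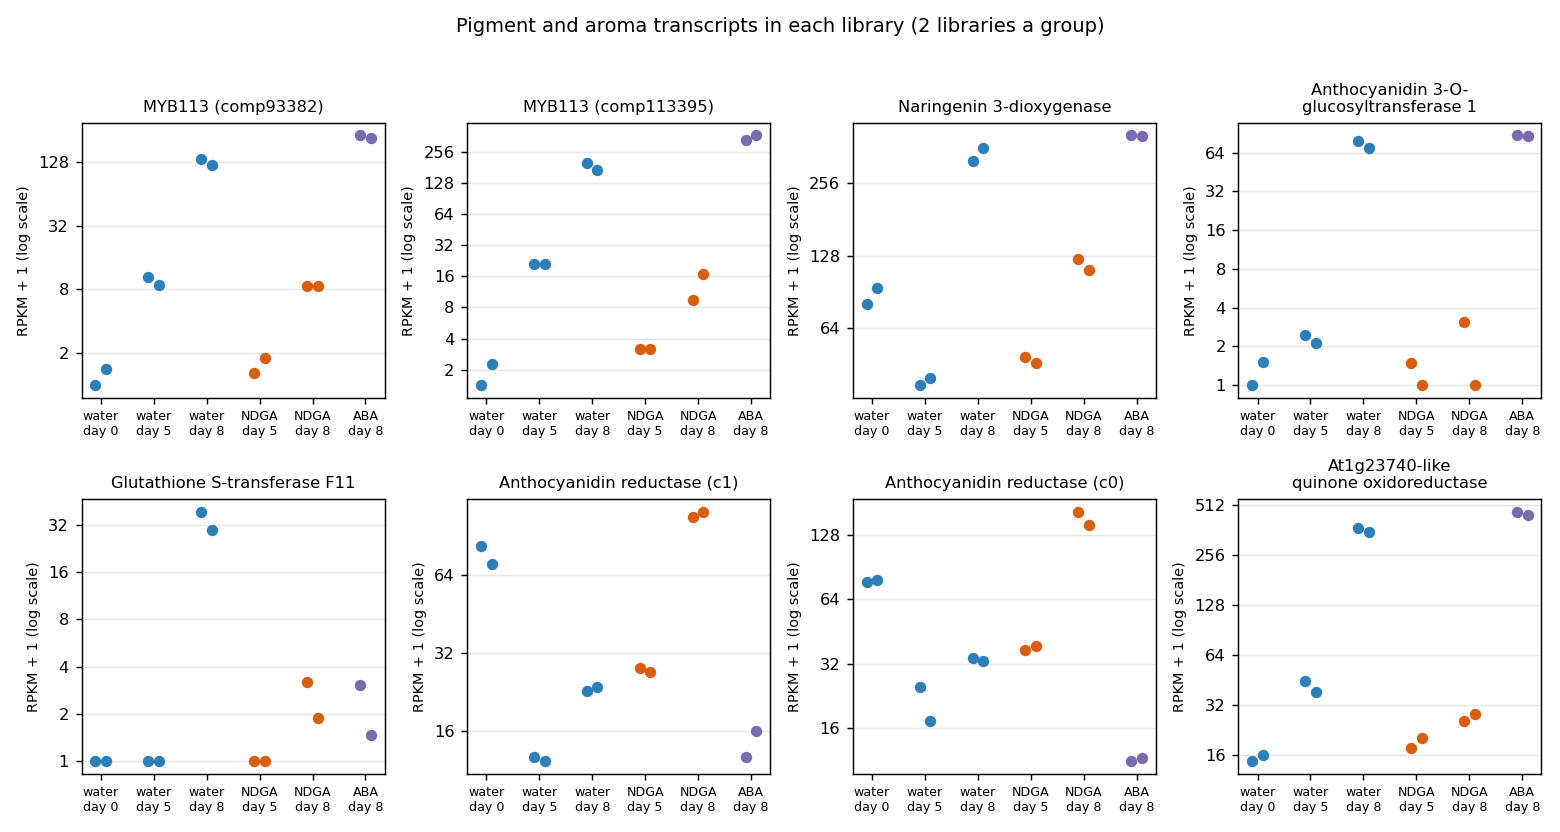
Levels (RPKM + 1, log scale) of 8 transcripts of pigment, flavonoid transport and aroma in 6 groups, with 1 point a library. At day 8 the MYB113, flavanone 3-hydroxylase and glucosyltransferase points of NDGA lie below those of water, and the anthocyanidin reductase points of NDGA lie above them.

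Of 70 tested enzymes of lignin building blocks, 1 rose and 2 fell, shares near the background. Caffeic acid 3-O-methyltransferase (comp98837_c1_seq1), which methylates lignin precursors, went from 567 and 459 RPKM in water to 266 and 266 RPKM in NDGA (log2 change -0.94 ± 0.13, adjusted p = 0.002). Cinnamoyl-CoA reductase 1 (comp96349_c2_seq8) was the member that rose, from 11.6 and 5.9 to 26.7 and 23.5 RPKM (log2 change 1.48 ± 0.26, adjusted p = 0.00798), while at day 5 the same form had a log2 change of -1.81 (adjusted p = 0.00161). The rise was no longer called without NDGA replicate 1, NDGA replicate 2 or water replicate 2 (adjusted p = 0.0918, 0.0508 and 0.0816, in a range of 0.000362 to 0.0918 over 15 alternatives). Among 131 peroxidases and laccases 3 rose and 0 fell, led by peroxidase 42 (comp102543_c0_seq2) with 123 and 132 RPKM in water and 277 and 254 RPKM in NDGA (log2 change 1.05 ± 0.09, adjusted p = 3.99e-05).

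Of 74 tested transcripts of aroma enzymes, 9 fell and 2 rose. Aroma calls numbered 5 to 8 lower and 0 to 1 higher with 1 library left out. Transcript comp99435_c1_seq1 is described as a quinone oxidoreductase-like protein named for Arabidopsis At1g23740, a description shared with the strawberry enzyme that forms the furanone of ripe fruit. It stood at 373 and 351 RPKM in water and 24.8 and 27.2 RPKM in NDGA (log2 change -3.75 ± 0.12, adjusted p = 9.15e-09), the smallest adjusted p among the named transcripts. Water libraries exceeded NDGA libraries 13.9-fold by their means. No such difference was seen in another transcript of that description, comp108005_c1_seq2, which stood at 198 and 217 RPKM in water and 200.4 and 215 RPKM in NDGA (log2 change 0.00, adjusted p = 1). Both called vinorine synthase-like acyltransferases, the family that includes the ester-forming alcohol acyltransferases, fell from means of 249 to 105 RPKM (log2 change -1.24) and of 119 to 53.9 RPKM (log2 change -1.13). Germacrene D synthase, a sesquiterpene synthase, fell in 2 components. The quinone oxidoreductase homolog comp94911_c1_seq1 rose from 2.45 and 2.07 to 7.35 and 8.99 RPKM (log2 change 1.49 ± 0.25, adjusted p = 0.00674). The call for that rise was lost without NDGA replicate 2 or water replicate 2 (adjusted p = 0.0815 and 0.0686, in a range of 0.00278 to 0.0815 over 15 alternatives). The other riser, nerolidol synthase 2, lost its call in 8 of 15 alternatives.

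Of 193 tested transcripts of the pectin enzymes, which loosen the wall, 16 fell with NDGA and 8 rose. Pectin calls numbered 7 to 12 lower and 2 to 4 higher with 1 library left out, 7 lower with a pseudocount of 0.1 and 9 lower without the 6 libraries nearly devoid of the divided set. Pectate lyases, which cleave pectin in ripening strawberry, supplied 9 of the 16 pectin-list members that fell. Probable pectate lyase 20 (comp111958_c0_seq2) stood at 197 and 189 RPKM in water and 47.4 and 48 RPKM in NDGA (log2 change -1.99 ± 0.12, adjusted p = 1.92e-06). Water libraries were higher without overlap, and the ABA libraries of day 8 were at 99.3 and 93.1 RPKM. The median log2 change of the pectin list was -0.02. Pectinesterase 3, which removes methyl groups from pectin, fell from a mean of 104 to 55.5 RPKM (log2 change -0.90, adjusted p = 0.00097). A non-catalytic polygalacturonase subunit (comp118585_c1_seq1) fell from 230.2 to 116 RPKM (log2 change -0.98), while the most abundant one, comp119420_c1_seq1, stood at 819.7 and 855 RPKM in water and 893 and 897 RPKM in NDGA (log2 change 0.10, adjusted p = 0.683). The risers included polygalacturonase At1g48100 (comp99181_c0_seq1), from a mean of 2.72 to 9.08 RPKM (log2 change 1.44), and polygalacturonase inhibitor 1 (comp102040_c0_seq2), a protein that blocks pectin cleavage rather than performing it. That inhibitor stood at 84 and 92.2 RPKM in water and 157 and 148 RPKM in NDGA (log2 change 0.78 ± 0.09, adjusted p = 0.000382).

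Expansins, which loosen the wall without cutting it, fell in 10 of 53 tested members and rose in 2, with a median of -0.22. Expansin-A8 form comp105538_c0_seq2 stood at 330.4 and 279.7 RPKM in water and 119.5 and 129 RPKM in NDGA (log2 change -1.28 ± 0.12, adjusted p = 5e-05). A more abundant form of that component, comp105538_c0_seq1, stood at 586 and 459 RPKM in water and 217 and 211 RPKM in NDGA (log2 change -1.27 ± 0.14, adjusted p = 0.00025). Both treatments were separate in each form, and at day 5 these forms had log2 changes of -1.68 and -0.92 with NDGA (adjusted p = 2.01e-06 and 0.00278). The 10 fallen forms lie in 8 components, and the component sums called 4 expansins lower and 1 higher among 42. An expansin-A8 form of another component (comp105325_c0_seq6) fell from a mean of 66.3 to 16.7 RPKM (log2 change -1.93). Expansin-A1 form comp107924_c1_seq2 was one of the risers, from 163 and 191 to 263 and 264 RPKM (log2 change 0.58 ± 0.12, adjusted p = 0.0191), while other expansin-A1 forms fell. That rise missed the threshold without NDGA replicate 1, NDGA replicate 2 or water replicate 1 (adjusted p = 0.128, 0.126 and 0.178, in a range of 0.00896 to 0.178 over 15 alternatives).

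Of 190 tested hydrolases of side chains and xyloglucan, 11 fell and 8 rose. Hydrolase calls numbered 7 to 8 lower and 1 to 2 higher with 1 library left out and 4 higher without the 6 libraries nearly devoid of the divided set. Beta-D-xylosidase 1 (comp112456_c0_seq3), which trims xylose from wall polymers, stood at 165 and 157 RPKM in water and 24.4 and 24.3 RPKM in NDGA (log2 change -2.68 ± 0.10, adjusted p = 4.25e-08). Another beta-D-xylosidase 1 component fell from a mean of 52.4 to 8.97 RPKM (log2 change -2.42, adjusted p = 2.73e-06). Xyloglucan endotransglucosylases, which cut and rejoin xyloglucan, fell in form comp101028_c0_seq1 from a mean of 95.1 to 32.8 RPKM (log2 change -1.51) and in comp105365_c0_seq1 from 102 to 30 RPKM (log2 change -1.72), while comp101028_c0_seq3 rose from 3.8 to 9.82 RPKM (log2 change 1.17, adjusted p = 0.0219). A call was lost for that rise whichever of the 4 libraries was left out (adjusted p = 0.153, 0.111, 0.143 and 0.0939). Forms of 1 component diverged in places. For xyloglucan endotransglucosylase B, form comp99586_c0_seq1 rose from 163 and 185 to 307 and 299.8 RPKM (log2 change 0.80 ± 0.11, adjusted p = 0.002), form comp99586_c0_seq4 fell from 410.1 to 207 RPKM (log2 change -0.99), and the summed component fell (log2 change -0.68, adjusted p = 0.00293). Endoglucanase 6, which cuts glucan chains, fell in form comp120169_c1_seq20 from a mean of 39.2 to 8.06 RPKM (log2 change -2.14). The cellulose synthases had 3 of 109 lower, 2 of them in the divided set, and 1 higher, shares near the background. The secondary-wall subunit CESA8 (comp97508_c0_seq1) lay outside that set and went from 8.71 and 6.79 to 0.469 and 0.861 RPKM (log2 change -2.39 ± 0.34, adjusted p = 0.0019).

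**Figure D4:**
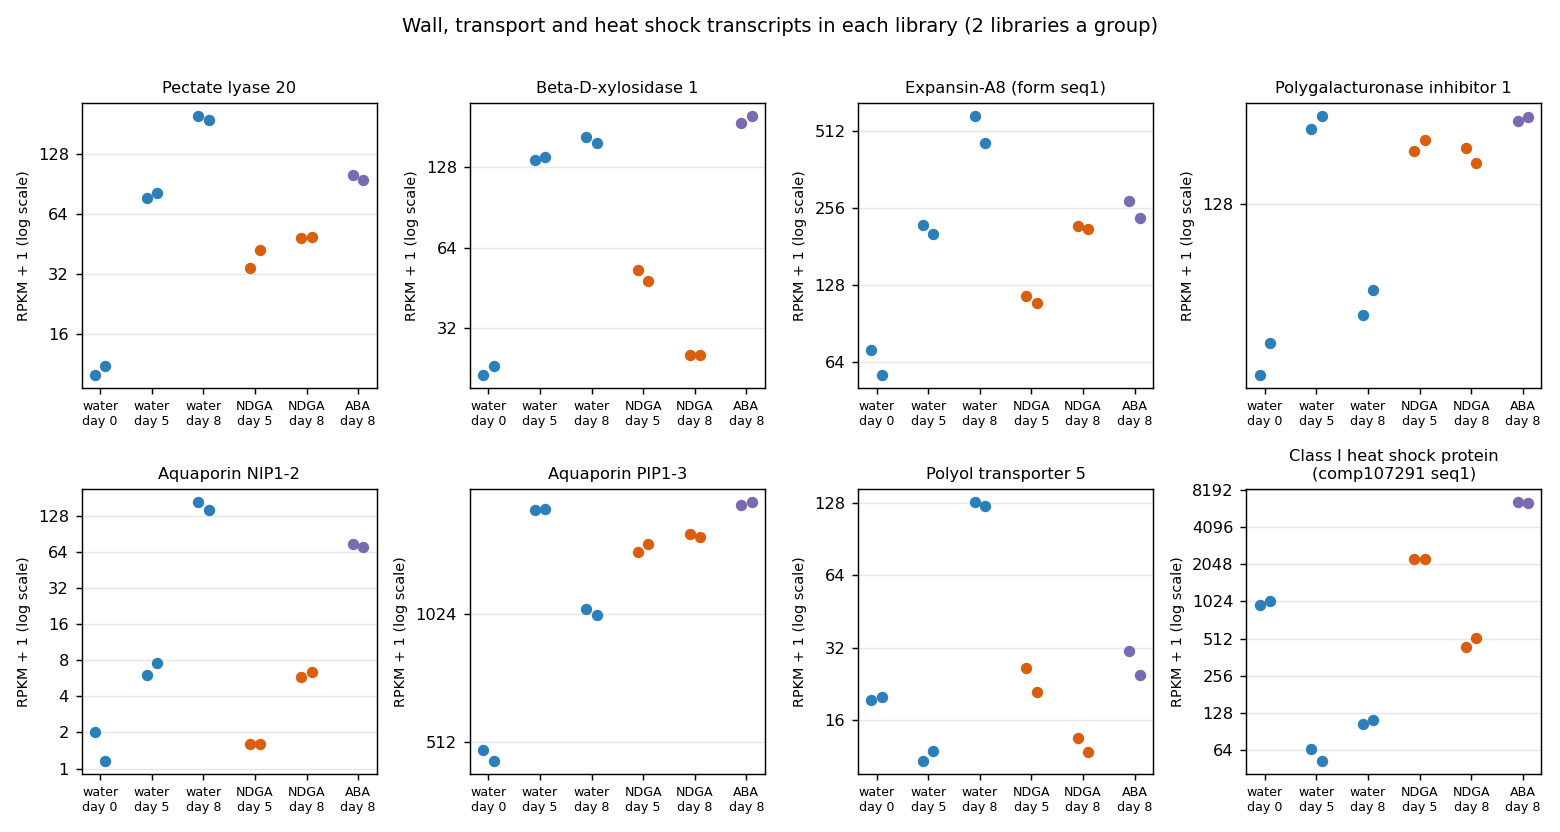
Levels (RPKM + 1, log scale) of 8 transcripts of wall modification, transport and heat shock in 6 groups, with 1 point a library. At day 8 the NDGA points of pectate lyase 20, expansin-A8 and beta-D-xylosidase 1 lie below the water points.

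Aquaporin NIP1-2 (comp96820_c1_seq2), of a channel family that passes small neutral solutes besides water, stood at 165 and 142 RPKM in water and 4.78 and 5.39 RPKM in NDGA (log2 change -4.66 ± 0.25, adjusted p = 4.66e-07). Its treatments were far apart at day 8, and at day 5 the log2 change was -2.08 (adjusted p = 0.000327). Of 61 tested aquaporins, 8 fell and 5 rose. Aquaporin calls numbered 5 to 7 lower and 2 to 3 higher with 1 library left out, 3 higher without the 6 libraries nearly devoid of the divided set and 3 higher with limma voom on recovered reads. PIP1-3 of the plasma membrane (comp113039_c0_seq6) rose from 1049 and 1018 RPKM to 1581 and 1552 RPKM (log2 change 0.60 ± 0.05, adjusted p = 1.77e-05), whereas PIP2-5 fell from a mean of 574 to 244 RPKM (log2 change -1.24) and PIP2-1 from 2750.0 to 1995 RPKM (log2 change -0.46). All 6 sugar transporters that fell, of 106 tested, were polyol transporter 5, a carrier of sugar alcohols and sugars in Arabidopsis, and 5 of the 6 were forms of 1 component. Form comp110090_c0_seq3 stood at 128 and 123 RPKM in water and 12.5 and 10.7 RPKM in NDGA (log2 change -3.33 ± 0.17, adjusted p = 3.81e-07), and form comp110090_c0_seq5 at 43 and 41.2 RPKM in water and 2.39 and 2.07 RPKM in NDGA (log2 change -3.74 ± 0.22, adjusted p = 1.46e-06). At day 5 the first form had stood at 9.83 and 10.9 RPKM in water and 25.4 and 20 RPKM in NDGA, and the second at 2.75 and 2.96 RPKM in water and 5.53 and 8.03 RPKM in NDGA. The day 8 change minus the day 5 change was -4.38 ± 0.24 (adjusted p = 3.73e-07) for the first and -4.73 ± 0.31 (adjusted p = 1.8e-06) for the second on the log2 scale.

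Of 87 tested sucrose enzymes 2 rose and 1 fell, shares near the background. Sucrose synthase (comp102943_c0_seq1), which splits sucrose, went from 36 and 36.7 RPKM in water to 58.6 and 60.6 RPKM in NDGA (log2 change 0.70 ± 0.12, adjusted p = 0.00661). Sucrose synthase was no longer called without NDGA replicate 1, NDGA replicate 2, water replicate 1 or water replicate 2 (adjusted p = 0.0527, 0.0688, 0.06 and 0.052, in a range of 1.34e-05 to 0.0688 over 15 alternatives). Acid invertase (acid beta-fructofuranosidase, comp111452_c0_seq2) went the other way, from 34.8 and 29.4 to 17 and 15.2 RPKM (log2 change -0.95 ± 0.17, adjusted p = 0.00809). The call for the invertase was lost without NDGA replicate 2 or water replicate 1 (adjusted p = 0.0865 and 0.0967, in a range of 0.000171 to 0.0967 over 15 alternatives). Granule-bound starch synthase 1 (comp110537_c1_seq6), which makes amylose, fell from 86.5 and 97.6 to 32.9 and 34 RPKM (log2 change -1.43 ± 0.22, adjusted p = 0.00292), and its NDGA comparison at day 5 gave the opposite sign (log2 change 1.41 ± 0.22, adjusted p = 0.00273). Among 118 members of malate and citrate metabolism 2 rose and 2 fell, again near the background. NADP-malic enzyme (comp99633_c0_seq2), which breaks malate down, went from 347 and 361 to 259.7 and 278 RPKM (log2 change -0.40 ± 0.07, adjusted p = 0.0061). The malic enzyme missed the threshold without NDGA replicate 1 or water replicate 2 (adjusted p = 0.0894 and 0.0727, in a range of 1.5e-05 to 0.0894 over 15 alternatives).

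Of 57 tested transcripts of carotenoid and ABA synthesis 0 rose and 1 fell at day 8, a share close to the background. NCED1 (comp98325_c0_seq1), the step that limits ABA synthesis, stood at 5.92 and 4.34 RPKM in water and 2.55 and 1.66 RPKM in NDGA. Both NDGA libraries were the lower ones, but the change did not pass the test (log2 change -0.98 ± 0.32, adjusted p = 0.166). The member that fell was beta-carotene hydroxylase 2 (comp107413_c1_seq2), which feeds the pathway, with 90.5 and 96.4 RPKM in water and 60.1 and 64.2 RPKM in NDGA (log2 change -0.58 ± 0.10, adjusted p = 0.00947). The hydroxylase was no longer called without the 6 libraries of water day 5, ABA day 5 and ABA day 8 and without NDGA replicate 1 or water replicate 2 (adjusted p = 0.05, 0.105 and 0.0971, in a range of 0.000875 to 0.105 over 15 alternatives). Both called members of ABA breakdown and conjugation, of 11 tested, were abscisate beta-glucosyltransferases, which tie ABA to glucose. Form comp105597_c1_seq2 rose from 7.59 and 6.08 to 17.1 and 23.6 RPKM (log2 change 1.44 ± 0.22, adjusted p = 0.00355), and form comp105597_c0_seq2 from a mean of 23.1 to 37.1 RPKM (log2 change 0.66, adjusted p = 0.0327). The call for the first form was lost without NDGA replicate 2 or water replicate 2 (adjusted p = 0.0599 and 0.0516, in a range of 0.00164 to 0.0599 over 15 alternatives). A call was lost for the second whichever of the 4 libraries was left out (adjusted p = 0.156, 0.175, 0.123 and 0.19).

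Among ABA receptors, protein phosphatases 2C and SnRK2 kinases, 5 of 96 fell and 0 rose. Apart from a protein phosphatase 2C, these were described as SAPK-type SnRK2 kinases, a family with members that pass on the ABA signal by phosphorylation. The descriptions do not show whether these forms are such members. SAPK3 (comp106429_c0_seq1) stood at 137 and 138 RPKM in water and 46.2 and 61 RPKM in NDGA (log2 change -1.36 ± 0.13, adjusted p = 7.28e-05), with the treatments well apart. A SAPK form of another component, comp114663_c0_seq1, fell from a mean of 224 to 108 RPKM (log2 change -1.05, adjusted p = 0.000114). Calls of this list numbered 2 lower with 1 library left out, 3 lower with a pseudocount of 0.1 and 3 lower without the 6 libraries nearly devoid of the divided set. The ABA transcription factors had 1 of 50 lower, a share close to the background, and that member was an ABI5-like form of the divided set. The most abundant of that list, G-box-binding factor 4 (comp111334_c1_seq2), stood at 41.1 and 41.9 RPKM in water and 42.7 and 41.4 RPKM in NDGA (log2 change 0.02, adjusted p = 1). Late embryogenesis abundant (LEA) proteins and dehydrins, often induced by ABA or drying, had 5 of 62 lower and 0 higher. LEA calls numbered 2 to 3 lower with 1 library left out. An 18 kDa seed maturation protein of that list (comp92316_c0_seq1) went from 83.9 and 102 to 19.3 and 14.5 RPKM (log2 change -2.40 ± 0.17, adjusted p = 9.12e-06), and it had also fallen at day 5 (log2 change -2.35 ± 0.17, adjusted p = 3.89e-06).

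Lipoxygenases and jasmonate synthesis, the other known point of action of NDGA, had 6 of 71 lower, 1 of them in the divided set, and 3 higher. Jasmonate calls numbered 2 to 3 lower and 0 to 1 higher with 1 library left out, 1 lower with a pseudocount of 0.1 and 2 lower without the 6 libraries nearly devoid of the divided set. The most abundant lipoxygenase, 9-lipoxygenase 5 (comp111446_c0_seq1), stood at 187 and 201 RPKM in water and 212 and 209 RPKM in NDGA (log2 change 0.12 ± 0.08, adjusted p = 0.632), and did not pass the test. The called forms of the 13-lipoxygenase 2-1 component went opposite ways. Form comp112755_c3_seq4 went from 4.69 and 4.99 to 13.4 and 12.6 RPKM (log2 change 1.26 ± 0.21, adjusted p = 0.00523), form comp112755_c3_seq12, of the divided set, from a mean of 16.5 to 2.91 RPKM (log2 change -2.19), and the component sum had a log2 change of -0.46 (adjusted p = 0.155). The first form missed the threshold with forms summed per component and without NDGA replicate 1 or water replicate 1 (adjusted p = 0.155, 0.0608 and 0.0521, in a range of 0.00158 to 0.155 over 15 alternatives). Allene oxide synthase, which commits the product to jasmonate, fell from a mean of 73.7 to 48.6 RPKM (log2 change -0.59), and allene oxide cyclase 4 rose from 108 to 144 RPKM (log2 change 0.42). Calls were lost for the synthase whichever of the 4 libraries was left out (adjusted p = 0.171, 0.218, 0.268 and 0.0935) and the cyclase whichever of the 4 libraries was left out (adjusted p = 0.158, 0.201, 0.069 and 0.264). Reductases of 12-oxophytodienoate, a family with members that act in jasmonate synthesis before the side chain is shortened, fell in 4 forms. Form comp106930_c0_seq18 went from 7.17 and 7.69 to 0.221 and 0.607 RPKM (log2 change -2.59 ± 0.31, adjusted p = 0.000533). That form was no longer called with a pseudocount of 0.1 (adjusted p = 0.0757, in a range of 2.16e-05 to 0.0757 over 13 alternatives). The jasmonate repressor TIFY 11A (comp104462_c1_seq3) rose from 8.34 and 10.1 RPKM to 45.6 and 45.2 RPKM (log2 change 2.19 ± 0.15, adjusted p = 6.9e-06). It had risen at day 5 too (log2 change 2.77 ± 0.15, adjusted p = 2.15e-07), and in ABA fruit of day 8 it was at 84.8 and 78.9 RPKM.

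Of 86 tested gibberellin genes 13 fell and 3 rose. Gibberellin calls numbered 9 to 11 lower and 0 to 1 higher with 1 library left out and 7 lower with a pseudocount of 0.1. The 13 included enzymes that make active gibberellin and enzymes that break it down, besides gibberellin-regulated peptides. Gibberellin 20-oxidase 1-B (comp103306_c0_seq1), a step of synthesis, stood at 39.9 and 42.2 RPKM in water and 7.46 and 7.99 RPKM in NDGA (log2 change -2.27 ± 0.15, adjusted p = 2.88e-06). The treatments did not overlap, and the form had also fallen at day 5 (log2 change -2.99 ± 0.15, adjusted p = 5.96e-08). Gibberellin 3-beta-dioxygenase 4, which makes the active hormone, fell from a mean of 33.2 to 6.82 RPKM (log2 change -2.13), and gibberellin 2-beta-dioxygenase 1, which inactivates it, from 74.5 to 21.6 RPKM (log2 change -1.74). Gibberellin-regulated protein 1 (comp102519_c2_seq5) stood at 394 and 304 RPKM in water and 59.2 and 60.1 RPKM in NDGA (log2 change -2.52 ± 0.23, adjusted p = 5.72e-05), and snakin-1 (comp116484_c0_seq14), a peptide of the same family, at 95.8 and 111 RPKM in water and 15.3 and 20.7 RPKM in NDGA (log2 change -2.47 ± 0.24, adjusted p = 9.52e-05). Neither is in the divided set, but their levels in the other groups resembled it. The first stood at 0.955 and 1.12 RPKM in water and 92.7 and 94.5 RPKM in NDGA at day 5 and at 0.664 and 0 RPKM in ABA fruit of day 8. The second stood at 0.599 and 0 RPKM in water and 64.1 and 61.9 RPKM in NDGA at day 5 and at 0.208 and 0.208 RPKM in ABA fruit of day 8. Both had risen with NDGA at day 5 (adjusted p = 1.42e-08 and 1.58e-08). The call for gibberellin-regulated protein 1 was lost with a pseudocount of 0.1 (adjusted p = 0.0885, in a range of 2.81e-07 to 0.0885 over 15 alternatives). Snakin-1 missed the threshold with a pseudocount of 0.1 (adjusted p = 0.084, in a range of 1.53e-07 to 0.084 over 15 alternatives). Of the 13 forms that fell, 3 belong to the divided set. The DELLA protein SLR1 (comp116278_c0_seq2), a repressor of gibberellin responses, went from 25 and 31.7 to 50.4 and 54.1 RPKM (log2 change 0.87 ± 0.17, adjusted p = 0.0164). SLR1 was no longer called with forms summed per component, with limma voom on recovered reads and without NDGA replicate 1, NDGA replicate 2 or water replicate 1 (adjusted p = 0.82, 0.0738, 0.0909, 0.132 and 0.159, in a range of 0.00181 to 0.82 over 15 alternatives).

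Ethylene synthesis and signalling had 5 of 122 lower and 1 higher. Of the 5, 4 were ACC oxidase or its homologs and 1 was an ethylene receptor of the divided set. Ethylene calls numbered 1 to 3 lower with 1 library left out, 1 lower with a pseudocount of 0.1 and 3 lower without the 6 libraries nearly devoid of the divided set. ACC oxidase 2 (comp93864_c0_seq2), which releases ethylene, went from 6.78 and 7.57 to 0.271 and 0.248 RPKM (log2 change -2.70 ± 0.37, adjusted p = 0.00147). The call for ACC oxidase 2 was lost with a pseudocount of 0.1 (adjusted p = 0.0884, in a range of 0.0001 to 0.0884 over 15 alternatives). Auxin response and transport had 6 of 285 lower and 3 higher, shares close to the background. Auxin calls numbered 2 lower and 0 to 1 higher with 1 library left out, 3 lower with a pseudocount of 0.1 and 3 lower without the 6 libraries nearly devoid of the divided set. AIR12 (auxin-induced in root cultures protein 12, comp101076_c0_seq2) stood at 416 and 438 RPKM in water and 251 and 257 RPKM in NDGA (log2 change -0.75 ± 0.09, adjusted p = 0.000818). The auxin-repressed 12.5 kDa protein fell in both called forms of its component, the more abundant from a mean of 46.3 to 8.65 RPKM (log2 change -2.29, adjusted p = 0.00106). GH3.5 (comp110861_c0_seq4), which conjugates auxin to amino acids, rose from 8.08 and 7.51 to 19 and 15.1 RPKM (log2 change 1.03 ± 0.19, adjusted p = 0.0125), against a log2 change of -1.35 at day 5. GH3.5 missed the threshold without the 6 libraries of water day 5, ABA day 5 and ABA day 8 and without NDGA replicate 1, water replicate 1 or water replicate 2 (adjusted p = 0.0553, 0.145, 0.0681 and 0.1, in a range of 0.00322 to 0.145 over 15 alternatives). The ethylene-responsive factor RAP2-12 (comp97789_c0_seq1) was called higher as well, from 4.31 and 4.37 to 10.4 and 9.36 RPKM (log2 change 1.03 ± 0.18, adjusted p = 0.00959). RAP2-12 was no longer called without the 6 libraries of water day 5, ABA day 5 and ABA day 8 and without NDGA replicate 1, NDGA replicate 2, water replicate 1 or water replicate 2 (adjusted p = 0.0577, 0.0988, 0.0504, 0.0689 and 0.0671, in a range of 0.00272 to 0.0988 over 15 alternatives). Cytokinin genes had 2 of 82 lower, 1 of them in the divided set, and brassinosteroid genes 1 of 48 higher, shares near the background.

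Small heat shock proteins are chaperones that hold unfolding proteins in solution. Of 69 tested members 18 rose and 0 fell with NDGA, with a median log2 change of 0.47, and each library left out in turn gave 15 to 17 risers. The 17.8 kDa class I form comp107291_c0_seq1 stood at 103 and 110.0 RPKM in water and 440.1 and 521 RPKM in NDGA (log2 change 2.16 ± 0.10, adjusted p = 2.23e-07). The 18.1 kDa class I form comp103478_c0_seq1 went from 219.8 and 195 to 1048 and 1096 RPKM (log2 change 2.37 ± 0.12, adjusted p = 3.14e-07), and the class II form comp102216_c0_seq6 from 10.2 and 8.5 to 58.1 and 52.2 RPKM (log2 change 2.44 ± 0.16, adjusted p = 2.87e-06). In all 3 the NDGA libraries lay above the water libraries without overlap. Further class I forms were among the most abundant transcripts of the list, a 16.9 kDa form at means of 634 RPKM in water and 3329 RPKM in NDGA (log2 change 2.39) and an 18.2 kDa form at 1057 RPKM in water and 2082 RPKM in NDGA (log2 change 0.98). At day 5 the same 17.8 kDa form had a larger NDGA change (log2 change 5.26 ± 0.10, adjusted p = 8.03e-12), and in ABA fruit of day 8 it was at 6514 and 6369 RPKM. Limma voom on the recovered reads called 6 of the list higher, against 18. The call for the 17.8 kDa form was lost with limma voom on recovered reads (adjusted p = 0.994, in a range of 9.79e-08 to 0.994 over 15 alternatives). The 18.1 kDa form missed the threshold with limma voom on recovered reads (adjusted p = 0.172, in a range of 3.73e-09 to 0.172 over 15 alternatives).

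Larger chaperones followed with 12 of 213 higher and 1 lower, and 3 to 7 higher with a library left out, 6 without the 6 libraries nearly devoid of the divided set and 6 with limma voom. The 70 kDa heat shock protein with the smallest adjusted p of the list (comp109644_c1_seq1) was at 14.7 and 15.2 RPKM in water and 63.3 and 75.2 RPKM in NDGA (log2 change 2.13 ± 0.11, adjusted p = 4.33e-07). This protein was no longer called with limma voom on recovered reads (adjusted p = 0.828, in a range of 1.65e-07 to 0.828 over 15 alternatives). The cochaperone BAG6 (comp99486_c0_seq1) went from 5.99 and 4.61 to 34.6 and 27.3 RPKM (log2 change 2.34 ± 0.36, adjusted p = 0.00311). The call for BAG6 was lost with limma voom on recovered reads and without NDGA replicate 1 (adjusted p = 0.0562 and 0.0522, in a range of 3.9e-05 to 0.0562 over 15 alternatives). A transcript described as a pentatricopeptide repeat protein (comp111402_c0_seq2) moved with similar size, from 238 and 218 to 1259 and 1382 RPKM (log2 change 2.53 ± 0.10, adjusted p = 5.97e-08). The repeat protein missed the threshold with limma voom on recovered reads (adjusted p = 0.988, in a range of 3.38e-09 to 0.988 over 15 alternatives). The single member that fell was heat stress factor B-2b (comp103520_c0_seq3), of a class known to repress heat genes in Arabidopsis, from 37.7 and 29.2 RPKM to 8.34 and 10 RPKM (log2 change -1.75 ± 0.17, adjusted p = 7.28e-05). In ABA fruit that factor was at 88.9 and 81.9 RPKM.

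The glutathione S-transferase comp93269_c0_seq1 rose from 26.9 and 30.8 RPKM in water to 117 and 128 RPKM in NDGA (log2 change 2.05 ± 0.14, adjusted p = 4.42e-06), as it had at day 5 (log2 change 2.51 ± 0.14, adjusted p = 2.08e-07). ABA fruit of day 8 held 516 and 500.4 RPKM of it. Thioredoxin H2 (comp100582_c0_seq1), a small disulfide reductase, rose from 177 and 171 to 324 and 295 RPKM (log2 change 0.82 ± 0.09, adjusted p = 0.000355). Monodehydroascorbate reductase (comp113818_c0_seq10), which recycles vitamin C, fell from 31.7 and 32.2 to 5.62 and 4.51 RPKM (log2 change -2.45 ± 0.27, adjusted p = 0.000269). Across 155 antioxidant transcripts 3 rose and 3 fell, shares near the background.

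PR-10 allergens, small ligand-binding proteins of which the strawberry members (Fra a) are linked to flavonoid synthesis, fell in 11 of 51 tested members and rose in 1, with a median of -0.89. The most abundant, described as Pru av 1 of cherry (comp101722_c0_seq4), stood at 4498 and 4585 RPKM in water and 2243 and 2220.1 RPKM in NDGA (log2 change -1.02 ± 0.04, adjusted p = 5.97e-08). With forms summed 5 of 34 components were lower. The Pru ar 1 form comp101722_c0_seq13, of the same component as the abundant form, went from 19.1 and 11.8 to 0.286 and 0 RPKM (log2 change -3.82 ± 0.32, adjusted p = 2.42e-05). At day 5 NDGA fruit had held more of the abundant form than water fruit, 6075 and 6232 against 1292 and 1343 RPKM, and its day 8 change minus its day 5 change was -3.25 ± 0.06 (adjusted p = 7.09e-12). The abundant form was no longer called with limma voom on recovered reads (adjusted p = 0.988, in a range of 1.24e-09 to 0.988 over 15 alternatives). The riser, comp95362_c0_seq1, went from 20.5 and 21 to 69.2 and 70.9 RPKM (log2 change 1.71 ± 0.16, adjusted p = 6.56e-05), and its day 5 change was -2.00 (adjusted p = 8.29e-06). Chitinases, glucanases and thaumatin-like proteins, enzymes and peptides of defence, rose in 8 of 173 and fell in 4. Defence calls numbered 2 to 5 higher and 1 to 2 lower with 1 library left out and 4 higher without the 6 libraries nearly devoid of the divided set. A glucan endo-1,3-beta-glucosidase (comp95685_c0_seq2) went from 0.662 and 0.982 to 6.6 and 9.33 RPKM (log2 change 2.29 ± 0.28, adjusted p = 0.000651), while osmotin-like OSM34 (comp100269_c1_seq2) went from 26.7 and 26.6 to 5.07 and 6.15 RPKM (log2 change -2.07 ± 0.21, adjusted p = 0.000124). Both had the opposite sign at day 5, with log2 changes of -1.49 and 2.05 (adjusted p = 0.0135 and 8.88e-05).

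Of 115 tested photosystem and antenna transcripts 11 fell and 0 rose, with a median of -0.32. Chlorophyll a-b binding protein P4 (comp95310_c0_seq1), of the antenna of photosystem I, stood at 274 and 262 RPKM in water and 145 and 139 RPKM in NDGA (log2 change -0.91 ± 0.10, adjusted p = 0.000217). The treatments did not overlap. Another antenna protein (comp101848_c0_seq1) went from a mean of 68.6 to 36.4 RPKM (log2 change -0.90), and the fallen members ranged from log2 changes of -1.53 to -0.60. Photosystem calls numbered 2 to 4 lower with 1 library left out, 6 lower with a pseudocount of 0.1 and 20 lower with limma voom on recovered reads. At day 5 NDGA fruit had held more of protein P4 than water fruit, 441 and 447 against 249 and 260.2 RPKM, and the day 8 change minus the day 5 change was -1.71 ± 0.14 (adjusted p = 1.33e-05). Of the 75 Calvin cycle and chlorophyll enzymes 0 were called. The most abundant of them, a Rubisco small subunit (comp100300_c0_seq4), stood at 100.0 and 108 RPKM in water and 89.3 and 100.5 RPKM in NDGA (log2 change -0.13 ± 0.16, adjusted p = 0.817).

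Histones, which package DNA, rose in 14 of 165 tested forms and fell in 4, and 2 of those 4 belong to the divided set. Histone H2B (comp88161_c0_seq1) stood at 489.6 and 513 RPKM in water and 929 and 990.3 RPKM in NDGA (log2 change 0.94 ± 0.12, adjusted p = 0.000785). A histone H4 component went from a mean of 171 to 397 RPKM (log2 change 1.21). With forms summed, 6 of 71 histone components were higher and 0 lower. Tubulins and actins, the cytoskeleton, rose in 14 of 111 forms and fell in 1. Tubulin beta-3 went from a mean of 1323 to 1755 RPKM (log2 change 0.41), and a tubulin alpha chain from 567 to 868 RPKM (log2 change 0.62). Actin (comp97795_c0_seq3) stood at 89.9 and 85.5 RPKM in water and 142 and 124 RPKM in NDGA (log2 change 0.59 ± 0.09, adjusted p = 0.00428). The call for actin was lost without NDGA replicate 1 or water replicate 2 (adjusted p = 0.0724 and 0.0543, in a range of 0.000384 to 0.0724 over 15 alternatives). Calls were lost for tubulin beta-3 whichever of the 4 libraries was left out (adjusted p = 0.327, 0.0505, 0.0733 and 0.296) and the alpha chain without NDGA replicate 1 or water replicate 2 (adjusted p = 0.0645 and 0.07, against 0.0356 and 0.0162 without the others). Calls of the cytoskeleton list numbered 0 to 5 higher with 1 library left out, 6 higher without the 6 libraries nearly devoid of the divided set and 7 higher with median-ratio scaling. Cytosolic ribosomal proteins had 29 of 707 higher and 5 lower, with 3 of the 5 in the divided set. Ribosomal protein calls numbered 1 to 4 lower and 7 to 12 higher with 1 library left out, 1 lower with a pseudocount of 0.1, 14 higher without the 6 libraries nearly devoid of the divided set, 53 higher with limma voom on recovered reads and 18 higher with median-ratio scaling. Ribosomal protein S3-3 (comp103709_c1_seq9) went from 10.7 and 9.95 to 37.5 and 38.8 RPKM (log2 change 1.79 ± 0.15, adjusted p = 3.36e-05). S3-3 missed the threshold with forms summed per component (adjusted p = 0.324, in a range of 7.87e-06 to 0.324 over 15 alternatives). Cyclin-D3-1 (comp110005_c1_seq1), which drives entry into division, went from 14.6 and 14.6 to 29.2 and 28.3 RPKM (log2 change 0.93 ± 0.18, adjusted p = 0.0166). The cyclin was no longer called without NDGA replicate 1, NDGA replicate 2, water replicate 1 or water replicate 2 (adjusted p = 0.128, 0.1, 0.102 and 0.105, in a range of 0.00365 to 0.128 over 15 alternatives).

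Histone calls numbered 6 to 9 higher with 1 library left out and 28 higher with limma voom on recovered reads. Among the named forms of the divided set, histone H3.2 (comp107748_c1_seq7) stood at 33 and 39.6 RPKM in water and 5.01 and 2 RPKM in NDGA (log2 change -3.13 ± 0.33, adjusted p = 0.000161). The homolog of cell division cycle protein 48, an unfolding ATPase (comp117453_c2_seq1), stood at 20.5 and 12.4 RPKM in water and 1.78 and 3.03 RPKM in NDGA (log2 change -2.34 ± 0.31, adjusted p = 0.00119). The call for the homolog was lost with a pseudocount of 0.1 (adjusted p = 0.0507, in a range of 0.000209 to 0.0507 over 14 alternatives). For histone H3.2, ribosomal protein L41 (comp97913_c1_seq4) and the proteasome subunit sem1-2 (comp96407_c0_seq3), all in the divided set, the sum over all forms of the component had a log2 change of 0.32, 0.18 and 0.03, against -3.13, -2.52 and -1.55 for the form itself.

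Among other transcription factors, homeobox genes fell in 9 of 159 tested members and rose in 0. Homeobox calls numbered 3 to 7 lower with 1 library left out, 5 lower with a pseudocount of 0.1 and 4 lower without the 6 libraries nearly devoid of the divided set. The zinc-finger homeobox gene named for At4g24660 (comp107027_c0_seq5) was among the most abundant transcripts, at 4081 and 4314 RPKM in water and 2374 and 2502 RPKM in NDGA (log2 change -0.78 ± 0.07, adjusted p = 2.84e-05). A homeobox-leucine zipper gene (comp101317_c0_seq1) fell from a mean of 23.9 to 10.1 RPKM (log2 change -1.16, adjusted p = 0.00198). The bHLH factors had 7 of 183 lower and 1 higher. Their calls numbered 0 to 2 lower with 1 library left out, 4 lower with a pseudocount of 0.1 and 2 lower without the 6 libraries nearly devoid of the divided set. The factor bHLH147 (comp101347_c0_seq17) went from 40.3 and 39.8 to 7.21 and 9.47 RPKM (log2 change -2.15 ± 0.33, adjusted p = 0.00311). That factor missed the threshold without NDGA replicate 1 (adjusted p = 0.0518, in a range of 0.000145 to 0.0518 over 15 alternatives). NAC102 (comp101085_c0_seq1), abundant in all 4 libraries, stood at 1606 and 1434 RPKM in water and 1099.9 and 1115 RPKM in NDGA (log2 change -0.45 ± 0.08, adjusted p = 0.0116). NAC102 was no longer called without NDGA replicate 1, NDGA replicate 2 or water replicate 1 (adjusted p = 0.106, 0.0831 and 0.136, in a range of 0.000267 to 0.136 over 15 alternatives). The MADS-box gene AGL21 (comp121586_c0_seq1) went from 11.4 and 11.9 to 0.341 and 0.937 RPKM (log2 change -2.97 ± 0.36, adjusted p = 0.000594). The call for AGL21 was lost with a pseudocount of 0.1 (adjusted p = 0.106, in a range of 1.05e-05 to 0.106 over 13 alternatives). WRKY13 (comp103065_c0_seq3) was the single called member of its family of 84, a share near the background. It rose from 5.39 and 2.89 to 18.4 and 15.4 RPKM (log2 change 1.84 ± 0.23, adjusted p = 0.000622).

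Cytochromes P450, a family of oxidising enzymes, fell in 15 of 257 tested members, 1 of them in the divided set, and rose in 2. P450 calls numbered 1 to 4 lower with 1 library left out, 9 lower with a pseudocount of 0.1 and 9 lower without the 6 libraries nearly devoid of the divided set. CYP78A3 (comp100828_c1_seq1) went from 10.6 and 8.38 to 0.718 and 0.599 RPKM (log2 change -2.65 ± 0.34, adjusted p = 0.000818). Ferulate 5-hydroxylase-type CYP84A1, of the sinapate branch, fell in 4 components. Other large drops outside the lists were probable carboxylesterase 2 (comp96126_c1_seq1), from 27.1 and 20.7 to 0.379 and 1.13 RPKM (log2 change -3.85 ± 0.35, adjusted p = 4.93e-05), the wall protein early nodulin-75 (comp99524_c0_seq5), from 101.4 and 75.1 to 7.3 and 4.61 RPKM (log2 change -3.69 ± 0.24, adjusted p = 2.95e-06), and a LysM receptor-like kinase (comp121242_c0_seq1), at 9.67 and 12.1 RPKM in water and listed at 0 in both NDGA libraries (adjusted p = 3.68e-05).

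Lists standing for other tissues were summed over all members in the table as a check of the labelled receptacle. Seed storage proteins and oil bodies of the achene summed to 352 and 369 RPKM in water and 240.3 and 222 RPKM in NDGA, and 119 of 174 members were at 0 in both libraries of each treatment. LEA proteins summed to 2747 and 2988 RPKM in water and 2440.0 and 2778 RPKM in NDGA. Xylem and secondary wall genes summed to 1115 and 1001 RPKM against 1241 and 1179 RPKM, with 5 of 84 tested members higher and 1 lower. Xylem calls numbered 2 to 3 higher with 1 library left out and 3 higher without the 6 libraries nearly devoid of the divided set. Cuticle and epidermis genes summed to 1623 and 1574 RPKM in water and 1488 and 1422 RPKM in NDGA, with 12 of 210 lower and 0 higher. Cuticle calls numbered 3 to 5 lower with 1 library left out and 5 lower with a pseudocount of 0.1. Pollen and anther genes summed to 3055 and 2872 RPKM against 3191 and 3145 RPKM. Sums of the seed storage and cuticle lists were thus lower in both NDGA libraries and those of the xylem and pollen lists higher. Their part in the results above was not tested. The vicilin-like transcript comp103260_c0_seq1, a seed storage protein, was at 66.5 and 55.3 RPKM in water and 1.98 and 2.64 RPKM in NDGA (log2 change -4.23 ± 0.23, adjusted p = 5.67e-07). Legumin B (comp115929_c3_seq2) stood at 1.93 and 3.05 RPKM in water and 5.82 and 5.23 RPKM in NDGA (log2 change 0.92 ± 0.18, adjusted p = 0.0158), against 476 and 511 RPKM in water and 3.63 and 3.74 RPKM in NDGA at day 5. Legumin B missed the threshold with a pseudocount of 5, with limma voom on recovered reads and without NDGA replicate 1, NDGA replicate 2 or water replicate 1 (adjusted p = 0.0503, 0.993, 0.131, 0.0696 and 0.141, in a range of 0.005 to 0.993 over 15 alternatives). In the cuticle list ECERIFERUM 3, a wax synthesis gene (comp104808_c0_seq1), went from 25.6 and 26.5 to 12.4 and 11.5 RPKM (log2 change -1.07 ± 0.15, adjusted p = 0.00138).

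The NDGA comparisons of day 5 and day 8 share no library, but both take the spread of a transcript from the same fit. A transcript with a small spread is thus more readily called on both days, in either direction. The overlaps below are descriptions of calls that are not independent. At day 5, 1220 transcripts rose (1.23%) and 795 fell (0.802%). Of the 699 that rose at day 8, 83 had also risen at day 5, which is 11.9% of the day 8 list and 6.8% of the day 5 list. Of the 1465 that fell at day 8, 177 had also fallen at day 5, which is 12.1% and 22.3% of those lists. Of the same day 8 fallers, 286 or 19.5% had risen at day 5, and 111 of the 286 belong to the divided set. Of the day 8 risers, 61 (8.7%) had fallen at day 5. The difference between the NDGA effects of the 2 days was called for 2628 transcripts (2.65%), with 850 (0.857%) more positive and 1778 (1.79%) more negative at day 8. A fit without the forms of the divided set called 781 more positive and 1428 more negative. Calls without each of the 8 libraries in turn numbered 1602 to 1798, the lowest without water day 5 replicate 2, and every one of them but that without water day 8 replicate 1 (1798) was over 1.5 times below the full count. The other leave-outs gave 1608 without NDGA day 8 replicate 1, 1662 without NDGA day 8 replicate 2, 1684 without water day 8 replicate 2, 1748 and 1676 without NDGA day 5 replicates 1 and 2, and 1636 without water day 5 replicate 1.

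MYB113, expansin-A8, gibberellin 20-oxidase 1-B and beta-D-xylosidase 1 were lower with NDGA on both days. For beta-D-xylosidase 1 the day 5 levels were 136 and 139 RPKM in water and 52 and 47 RPKM in NDGA (log2 change -1.46 ± 0.10, adjusted p = 1.85e-06), and its day 8 change minus its day 5 change was -1.22 ± 0.14 (adjusted p = 0.00028). Flavanone 3-hydroxylase did not pass the test at day 5, at 36.3 and 38.8 RPKM in water and 47.6 and 45.1 RPKM in NDGA (log2 change 0.30 ± 0.10, adjusted p = 0.222), and the 2 days differed by -1.81 ± 0.15 (adjusted p = 1.4e-05) on the log2 scale. The anthocyanidin reductase comp103703_c1_seq1 had a smaller change at day 5 (log2 change 1.14 ± 0.15, adjusted p = 0.000907), with a difference between days of 1.10 ± 0.21 (adjusted p = 0.0133). Peroxidase 42, the glutathione S-transferase comp93269_c0_seq1, TIFY 11A and the 70 kDa heat shock protein were higher on both days, with differences between days that did not pass the test (adjusted p = 0.43, 0.31, 0.221 and 0.182). Seed storage transcripts gave some of the largest differences between days. The achene list summed to 5525 and 5638 RPKM in water and 263.5 and 239 RPKM in NDGA at day 5, with 52 of 83 tested members lower and 0 higher there, against 4 lower and 4 higher at day 8. Both NDGA libraries of day 5 were thus far below both water libraries of day 5, and the part of this list in the other differences between days was not tested. The 11S globulin comp94194_c0_seq2 stood at 414 and 479 RPKM in water and 0.931 and 1.24 RPKM in NDGA at day 5, and at 0.32 and 0.95 RPKM in water and 3.45 and 3.17 RPKM in NDGA at day 8.

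**Figure D5:**
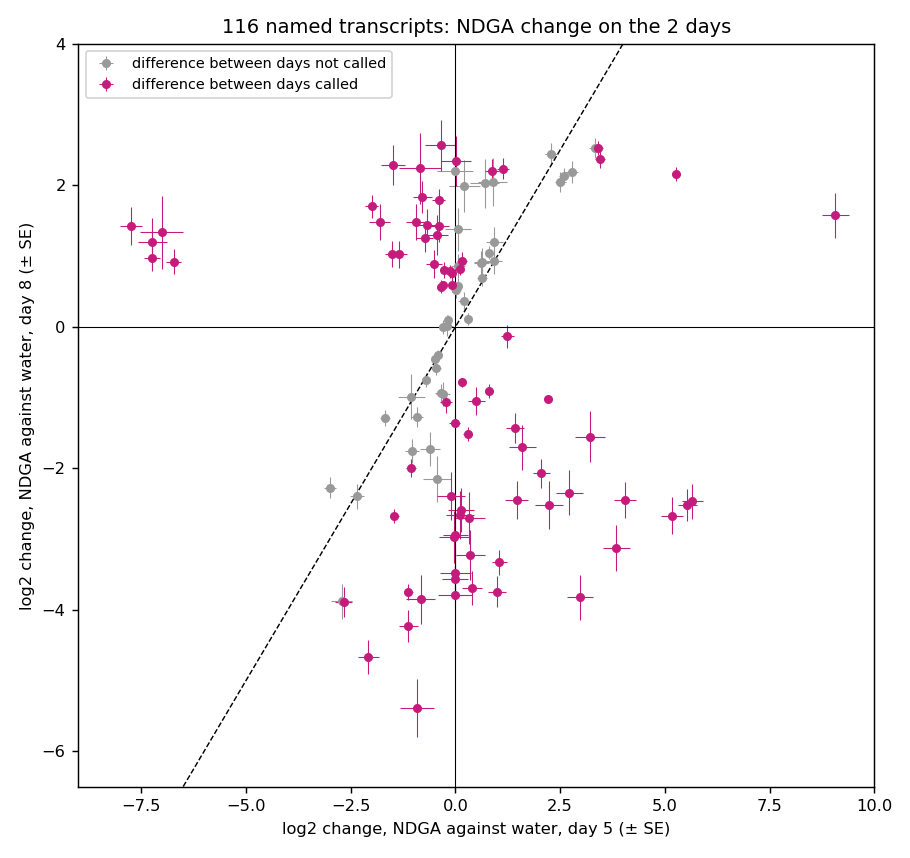
NDGA change against water at day 5 (horizontal) and day 8 (vertical), both on the log2(RPKM + 1) scale with standard errors, for the 116 named transcripts, with 1 point a transcript. The dashed line marks equal change on both days. Points in the lower right quadrant are transcripts with a positive change at day 5 and a negative one at day 8, such as snakin-1 and gibberellin-regulated protein 1.

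The authors' deposited table also lists transcripts they chose as moving in opposite ways under ABA and NDGA. These were picked on the same samples, so their direction here is not independent evidence. Of 30 genes the authors' deposited table gives as higher with ABA and lower with NDGA, all 30 had a negative NDGA change at day 8, 8 of them called, with a median of -0.71. Of 89 genes that the authors' deposited table gives as lower with ABA and higher with NDGA, 87 had a positive change, 11 of them called, with a median of 0.35. For transcription factors in the authors' deposited table, 12 of 13 and 7 of 7 had the listed sign, with 1 call in each.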

How the data were processed

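Per the labels, polyadenylated RNA of injected strawberry receptacles was sequenced and reads were placed on a Trinity assembly, and the authors deposited RPKM of 301219 assembled transcripts (98600 components, 130654 with a Swiss-Prot description). The sources used here name neither aligner nor counter. Per the file headers each of the 14 mRNA libraries has its own RPKM column, while the labels speak of 7 libraries, and 0 columns of values were left unused. RPKM times length gave whole reads for 100% of values within 0.1 read.

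The comparison used limma 3.58.1 in R 4.3.3 (lmFit, eBayes with trend, two-sided) on log2(RPKM + 1) with 7 group means over 14 libraries, for transcripts with at least 1 RPKM in at least 2 libraries, and Benjamini-Hochberg adjustment at 0.05. Precision is limited by 7 residual degrees of freedom. Simulated data with the same design were also put through the fit. Their noise was independent and normal, with the fitted spread of each transcript. They therefore cannot show how technical or unequal spread, or forms with many zeros, affect the calls.

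Gene lists (55) are keywords over the descriptions, and the members and lists were chosen with earlier results of these data known. Named transcripts (116) were, per list, the called member with at least 5 RPKM and the smallest adjusted p in each direction or, with no call, the most abundant member. To these were added the 12 largest rises and 12 largest drops at 10 RPKM or more, the most abundant transcripts of 7 chosen functions, and the 4 largest differences between days each way. Other list members given by their group means were picked after their values were seen. Alternatives covered pseudocounts, filters, scaling, the libraries in the fit, a replicate block, component sums, limma voom on recovered reads and each library left out.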

Additional observations from a re-analysis of the deposited data

Results flagged for a closer look

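The NDGA effect at day 8 differed from the NDGA effect at day 5 for 77 of the 116 named transcripts, against 2.65% of all tested transcripts. The naming rule took in the largest day 8 changes and the largest differences between days, so the count of 77 is in large part set by that choice. Each difference was tested by the interaction contrast of the limma fit over all 14 libraries (adjusted p below 0.05 over 99136 transcripts). Values below are the day 8 log2 change minus the day 5 log2 change. Single differences were not refitted without single libraries. No group had enough libraries for a check of outlying samples.

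Of the 77, 17 fell at day 8 and rose at day 5, with adjusted p of the difference from 7.09e-12 to 0.00128. The differences were -8.13 for snakin-1 (comp116484_c0_seq14), -8.05 for gibberellin-regulated protein 1 (comp102519_c2_seq5), -7.84 for NADH dehydrogenase [ubiquinone] 1 beta subcomplex subunit 3-B (comp106676_c0_seq2), -6.97 for histone H3.2 (comp107748_c1_seq7) and -6.8 for major allergen Pru ar 1 (comp101722_c0_seq13). Next came -6.5 for pollen-specific leucine-rich repeat extensin-like protein 1 (comp92778_c0_seq2), -5.06 for cell division cycle protein 48 homolog (comp117453_c2_seq1), -4.76 for 60S ribosomal protein L41 (comp97913_c1_seq4), -4.75 for 26S proteasome complex subunit sem1-2 (comp96407_c0_seq3) and -4.73 for polyol transporter 5 (comp110090_c0_seq5). Further values were -4.38 for polyol transporter 5 (comp110090_c0_seq3), -4.12 for osmotin-like protein OSM34 (comp100269_c1_seq2), -3.91 for monodehydroascorbate reductase (comp113818_c0_seq10), -3.3 for cytokinin dehydrogenase 7 (comp99951_c1_seq2) and -3.25 for major allergen Pru av 1 (comp101722_c0_seq4). Then followed -2.85 for granule-bound starch synthase 1 (comp110537_c1_seq6) and -1.71 for chlorophyll a-b binding protein P4 (comp95310_c0_seq1). The forms of the divided set among these were NADH dehydrogenase [ubiquinone] 1 beta subcomplex subunit 3-B, histone H3.2, pollen-specific leucine-rich repeat extensin-like protein 1, cell division cycle protein 48 homolog, 60S ribosomal protein L41, 26S proteasome complex subunit sem1-2 and cytokinin dehydrogenase 7. Their rise at day 5 is largely set by how the divided set was defined.

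Of the 77, 18 fell at day 8 with no call at day 5, with adjusted p of the difference from 1.4e-05 to 0.048. The differences were -4.48 for anthocyanidin 3-O-glucosyltransferase 1 (comp118873_c1_seq4), -4.09 for early nodulin-75 (comp99524_c0_seq5), -3.78 for glutathione S-transferase F11 (comp96711_c0_seq3), -3.58 for phenylalanine ammonia-lyase 1 (comp109367_c0_seq10) and -3.57 for LysM domain receptor-like kinase 3 (comp121242_c0_seq1). Next came -3.48 for TRANSPARENT TESTA 12 (comp46405_c0_seq2), -3.03 for 1-aminocyclopropane-1-carboxylate oxidase 2 (comp93864_c0_seq2), -3.02 for carboxylesterase 2 (comp96126_c1_seq1), -2.95 for glutathione S-transferase F11 (comp97186_c0_seq1) and -2.94 for agamous-like MADS-box protein AGL21 (comp121586_c0_seq1). Further values were -2.77 for cytochrome P450 78A3 (comp100828_c1_seq1), -2.72 for 12-oxophytodienoate reductase 1 (comp106930_c0_seq18), -2.3 for cellulose synthase A catalytic subunit 8 (comp97508_c0_seq1), -1.81 for naringenin,2-oxoglutarate 3-dioxygenase (comp105084_c0_seq1) and -1.55 for tubulin alpha-6 chain (comp113746_c1_seq2). Then followed -1.35 for serine/threonine-protein kinase SAPK3 (comp106429_c0_seq1), -0.94 for ZF-HD homeobox protein At4g24660 (comp107027_c0_seq5) and -0.84 for ECERIFERUM 3 (comp104808_c0_seq1).

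Of the 77, 6 fell on both days, with adjusted p of the difference from 1.25e-06 to 0.0486. The differences were -3.1 for vicilin-like antimicrobial peptides 2-2 (comp103260_c0_seq1), -2.63 for quinone oxidoreductase-like protein At1g23740 (comp99435_c1_seq1), -2.59 for aquaporin NIP1-2 (comp96820_c1_seq2), -1.22 for transcription factor MYB113 (comp93382_c0_seq1) and -1.22 for beta-D-xylosidase 1 (comp112456_c0_seq3). Next came -0.94 for pectate lyase 20 (comp111958_c0_seq2).

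Of the 77, 9 rose at day 8 and fell at day 5, with adjusted p of the difference from 8.38e-09 to 0.000257. The differences were 0.9 for aquaporin PIP1-3 (comp113039_c0_seq6), 2.37 for indole-3-acetic acid-amido synthetase GH3.5 (comp110861_c0_seq4), 2.53 for ethylene-responsive transcription factor RAP2-12 (comp97789_c0_seq1), 3.29 for cinnamoyl-CoA reductase 1 (comp96349_c2_seq8) and 3.71 for major allergen Pru av 1 (comp95362_c0_seq1). Next came 3.78 for glucan endo-1,3-beta-D-glucosidase (comp95685_c0_seq2), 7.64 for legumin B (comp115929_c3_seq2), 8.23 for vicilin-like antimicrobial peptides 2-1 (comp99556_c0_seq1) and 9.17 for 11S globulin seed storage protein G3 (comp94194_c0_seq2).

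Of the 77, 18 rose at day 8 with no call at day 5, with adjusted p of the difference from 8.65e-05 to 0.0351. The differences were 0.68 for actin (comp97795_c0_seq3), 0.72 for thioredoxin H2 (comp100582_c0_seq1), 0.78 for histone H2B (comp88161_c0_seq1), 0.84 for fasciclin-like arabinogalactan protein 10 (comp105683_c0_seq2) and 0.9 for proteasome subunit alpha type-3 (comp103509_c1_seq3). Next came 0.91 for polygalacturonase inhibitor 1 (comp102040_c0_seq2), 1.06 for xyloglucan endotransglucosylase/hydrolase protein B (comp99586_c0_seq1), 1.4 for brassinosteroid-regulated protein BRU1 (comp100985_c0_seq1), 1.75 for anther-specific proline-rich protein APG (comp98135_c1_seq1) and 1.82 for citrate synthase, glyoxysomal (comp110690_c0_seq9). Further values were 2.0 for linoleate 13S-lipoxygenase 2-1 (comp112755_c3_seq4), 2.12 for abscisate beta-glucosyltransferase (comp105597_c1_seq2), 2.19 for 40S ribosomal protein S3-3 (comp103709_c1_seq9), 2.32 for BAG family molecular chaperone regulator 6 (comp99486_c0_seq1) and 2.42 for quinone-oxidoreductase homolog (comp94911_c1_seq1). Then followed 2.63 for WRKY transcription factor 13 (comp103065_c0_seq3), 2.92 for vegetative cell wall protein gp1 (comp96200_c1_seq1) and 3.09 for (3S,6E)-nerolidol synthase 2 (comp108433_c0_seq10).

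Of the 77, 6 rose on both days, with adjusted p of the difference from 6.65e-08 to 0.0133. The differences were -7.5 for 17.6 kDa class I heat shock protein (comp99896_c0_seq2), -3.1 for 17.8 kDa class I heat shock protein (comp107291_c0_seq1), -1.09 for 18.1 kDa class I heat shock protein (comp103478_c0_seq1), -0.89 for pentatricopeptide repeat-containing protein At3g14730 (comp111402_c0_seq2) and 1.1 for anthocyanidin reductase (comp103703_c1_seq1). Next came 1.33 for anthocyanidin reductase (comp103703_c0_seq1).

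Of the 77, 2 had no call at day 8 and fell at day 5, with adjusted p of the difference from 6.15e-07 to 2.69e-05. The differences were 8.35 for 11S globulin seed storage protein G3 (comp96265_c0_seq2) and 8.43 for 13S globulin basic chain (comp113743_c1_seq1).

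Of the 77, 1 had no call at day 8 and rose at day 5 (adjusted p of the difference 0.00476). The difference was -1.37 for ribulose bisphosphate carboxylase small chain (comp100300_c0_seq4).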

How the results depend on the processing

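The count of 2164 changed transcripts at day 8 moved by over 1.5 times under some settings. It was 1358 with log2(RPKM + 0.1), 756 in a fit of the 4 compared libraries, 0 when that fit kept the transcripts of the full fit (limma, 12583 at an unadjusted p below 0.05), 1417 (431 higher, 986 lower) without the 6 libraries of water day 5, ABA day 5 and ABA day 8, and 834 to 917 with each library left out. For the difference between days, 2628 became 1440 in a fit of the 8 compared libraries on the transcripts of the full fit and 1602 to 1798 with each library left out. The fits that leave 1 library in a group take its spread from the other groups. Dropping the divided set, dropping those 6 libraries and holding the transcripts fixed in the smaller fits were chosen after seeing the data. Within 1.5 times were a pseudocount of 5 (2520 and 2698), no filter (2041 and 2279), quantile normalization (2180 and 2557), median-ratio scaling (2011 and 2450), component sums (1744 and 1815), limma voom on recovered reads (2532 and 3107) and leaving out the divided set (1982 and 2209), and the 8-library fit gave 2101 differences. A filter at 5 RPKM gave 2611 (1029 higher, 1582 lower) and 2804 (1191 more positive, 1613 more negative at day 8). Under that filter the share of more positive differences moved by over 10 points, but the share of day 8 risers did not. No other setting with calls moved either share by that much.

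A replicate block gave 2783 calls (1023 higher, 1760 lower) and 3165 differences. The numbers share no stated batch, and the deviations of replicate 1 in NDGA and water correlated at 0.0601, so the block has no pairing behind it.

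Of 107 called named transcripts, 52 kept the call in every alternative that could be computed for them (15, or 14 for 1 of the 52) other than the fits of the compared libraries, 17 lost it in 1 and 38 in 2 or more. The 4-library fit kept 73 of the 107, and 0 on the transcripts of the full fit. The sign turned in 3 transcripts with no call and in 5 called forms. Of those with no call, the quinone oxidoreductase comp108005_c1_seq2 gave -0.0232 under quantile normalization, -0.0345 under median-ratio scaling and -0.066 to 0.0669 with a library left out. The polygalacturonase subunit comp119420_c1_seq1 gave -0.0286 under quantile normalization. G-box-binding factor 4 (comp111334_c1_seq2) gave -0.0161 under median-ratio scaling, -0.0505 with forms summed and -0.002595 to 0.0389 with a library left out. With forms summed, called forms turned sign in 5 components, to -0.46 for 13S-lipoxygenase 2-1 (comp112755_c3_seq4), -0.68 for xyloglucan endotransglucosylase B (comp99586_c0_seq1), 0.0299 for sem1-2 (comp96407_c0_seq3), 0.18 for ribosomal protein L41 (comp97913_c1_seq4) and 0.32 for histone H3.2 (comp107748_c1_seq7), since other forms of those components hold reads. Other causes were not tested. Depth limits low transcripts, where 1 read on 1 kb is 0.116 to 0.127 RPKM.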

Other observations

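The naming rule chose further transcripts whose levels are not given above. Fasciclin-like arabinogalactan protein 10 (comp105683_c0_seq2), a cell surface glycoprotein, stood at 58.3 and 61.3 RPKM in water and 104 and 100.3 RPKM in NDGA (adjusted p = 0.000634, and 1.29e-06 to 0.0136 over 15 alternatives). Vegetative cell wall protein gp1 (comp96200_c1_seq1) stood at 1.44 and 5.21 RPKM in water and 16.5 and 29.4 RPKM in NDGA (adjusted p = 0.00176, and 0.000449 to 0.0377 over 15 alternatives). The 18.1 kDa heat shock form comp101863_c1_seq1 stood at 145 and 153 RPKM in water and 754 and 996 RPKM in NDGA (adjusted p = 7.45e-07, and 1.2e-09 to 0.237 over 15 alternatives), and its call was lost with limma voom on recovered reads. All 3 rose with NDGA at day 8.

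The transcripts that follow each lost their call in at least 1 alternative. Risers among them were glyoxysomal citrate synthase (comp110690_c0_seq9), at 5.6 and 7.6 RPKM in water and 19.7 and 19 RPKM in NDGA (adjusted p = 0.00418, and 0.00197 to 0.0812 over 15 alternatives), cellulose synthase-like D3 (comp89716_c0_seq1), at 0.353 and 1.05 RPKM in water and 5.71 and 5.93 RPKM in NDGA (adjusted p = 0.00684, and 0.00342 to 0.0833 over 15 alternatives), and proteasome subunit alpha type-3 (comp103509_c1_seq3), at 105 and 100.1 RPKM in water and 155 and 149.5 RPKM in NDGA (adjusted p = 0.00485, and 9.42e-05 to 0.0619 over 15 alternatives). In the transport and P450 families, ABC transporter G family member 14 (comp111299_c0_seq1) stood at 9.26 and 7.73 RPKM in water and 18.7 and 15.4 RPKM in NDGA (adjusted p = 0.025, and 0.00193 to 0.204 over 15 alternatives) and cytochrome P450 85A (comp108848_c0_seq3), named for brassinosteroid oxidases, at 13.6 and 12.9 RPKM in water and 28.8 and 22.8 RPKM in NDGA (adjusted p = 0.0139, and 0.00152 to 0.164 over 15 alternatives). Of the transcription factors, bHLH96 (comp101686_c0_seq1) stood at 5.7 and 4.46 RPKM in water and 14.2 and 11.8 RPKM in NDGA (adjusted p = 0.00826, and 0.00331 to 0.102 over 15 alternatives) and NAC29 (comp105852_c1_seq1) at 2.34 and 0.693 RPKM in water and 5.54 and 4.85 RPKM in NDGA (adjusted p = 0.0318, and 0.00972 to 0.239 over 15 alternatives). Others that rose were S-adenosylmethionine synthase 2 (comp99435_c0_seq2), at 51.4 and 48.2 RPKM in water and 80.1 and 64.3 RPKM in NDGA (adjusted p = 0.0332, and 0.0098 to 0.282 over 15 alternatives), BRU1 (comp100985_c0_seq1), at 6.11 and 4.76 RPKM in water and 12.5 and 9.43 RPKM in NDGA (adjusted p = 0.0348, and 0.0132 to 0.267 over 15 alternatives), the anther protein APG (comp98135_c1_seq1), at 1.78 and 1.17 RPKM in water and 4.05 and 6.26 RPKM in NDGA (adjusted p = 0.0293, and 0.00188 to 0.226 over 15 alternatives), and dihydrolipoyl dehydrogenase 1 (comp110926_c0_seq3), at 2 and 1.32 RPKM in water and 17.6 and 6.93 RPKM in NDGA (adjusted p = 0.0158, and 0.00714 to 0.774 over 15 alternatives). Tubulin alpha-6 (comp113746_c1_seq2) was the member of its list that fell, at 37 and 46.7 RPKM in water and 21.4 and 18.1 RPKM in NDGA (adjusted p = 0.0142, and 0.00545 to 0.198 over 15 alternatives). Each of these had both libraries of one treatment above both of the other. How many of all tested transcripts did so was not counted, and most named transcripts were picked as called. A lack of overlap, here or in the single transcripts above, thus adds no support to the calls.

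Of the divided set, an NADH dehydrogenase beta subunit (comp106676_c0_seq2) stood at 159 and 113 RPKM in water and 23.1 and 17.8 RPKM in NDGA (adjusted p = 9.04e-05, and 5.15e-06 to 0.0741 over 14 alternatives) and at 0 and 0.611 RPKM in water and 44.8 and 44.6 RPKM in NDGA at day 5. A pollen-specific extensin-like protein (comp92778_c0_seq2) stood at 21.1 and 27.1 RPKM in water and 3.91 and 3.27 RPKM in NDGA (adjusted p = 0.000185, and 2.83e-05 to 0.0139 over 14 alternatives), and cytokinin dehydrogenase 7 (comp99951_c1_seq2), which breaks cytokinin down, at 6.12 and 4.34 RPKM in water and 0.871 and 0.913 RPKM in NDGA (adjusted p = 0.0137, and 0.00182 to 0.199 over 14 alternatives). All 3 fell with NDGA at day 8.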
